A study of Mus musculus with 32 samples.

Results

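Transcripts of 10 genes of the NRF2 antioxidant response were examined in skeletal muscle of wild-type (WT) and *Mtm1* knockout (KO) mice, out of 54838 genes in the deposited table. The genes were taken from a fixed list of symbols, chosen with earlier results of these data known, so shares among all genes are given for description only. The list held *Nfe2l2* and *Keap1*, which encode the transcription factor NRF2 and the protein that holds it in check. It also held the target genes *Gclc*, *Gclm*, *Slc7a11*, *Txnrd1*, *Srxn1*, *Nqo1*, *Hmox1* and *Gsta4*. All 10 were found and all 10 passed the filter on low counts at each age. The study followed mice that model X-linked myotubular myopathy, a muscle disease caused by loss of the phosphoinositide phosphatase MTM1. RNA came from the tibialis anterior (TA) muscle at postnatal day 1 (P1), P14, P21 and P35, with *n*=4 libraries per genotype and age and 32 in all. Poly(A) RNA was sequenced from directional libraries. Both genotypes had the C57BL6/J strain background. KO mice carried a deletion in exon 4 of *Mtm1* in the germline, on a line first made on a 129S2PAS background, and their WT littermates served as controls. The labels number the replicates and do not name the animals, so *P*-values measure the spread between these libraries.

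NRF2 is a basic leucine zipper factor that is made continuously and, in unstressed cells, is bound by KEAP1, which presents it to a ubiquitin ligase for destruction. When cysteines of KEAP1 are modified by oxidants or electrophiles, or when KEAP1 is sequestered by p62, NRF2 persists, enters the nucleus, pairs with a small MAF protein and binds antioxidant response elements near its target genes. The targets make glutathione, reduce thioredoxin and peroxiredoxins, detoxify quinones, degrade haem and conjugate lipid aldehydes. Because NRF2 is controlled mainly as a protein, the level of its own transcript says little about its activity.

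Levels are given as CPM, a count divided by the size of its library, with library sizes scaled by the trimmed mean of M-values (TMM) over all 32 libraries. Within an age, KO libraries were set against WT libraries by edgeR's quasi-likelihood test. A gene was called where the adjusted *P*-value was below 0.01 and the log2 fold change of KO over WT (log2FC) was larger than that of a 1.5-fold change in either direction. Totals ran from 49321035 to 85631408 counts per library. *Mtm1* itself stood at 18.9 to 24.9 CPM across WT and 2.64 to 4.51 CPM across KO libraries from P14 to P35, and at P1 at 5.26 to 6.01 CPM across WT and 2.32 to 3.91 CPM across KO libraries, with no overlap at any age. The 11 muscle fibre markers checked were detected in every group. The 8 keratinocyte markers summed to 1544 to 5863 CPM in both genotypes at P1, against 6.71 to 35.2 CPM in all later libraries. This was bulk tissue, in which fewer cells of a type and less RNA per cell cannot be told apart.

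Of the 10 genes, 2 were called. *Srxn1*, which encodes sulfiredoxin, and *Nqo1*, which encodes NAD(P)H quinone dehydrogenase 1, rose at P21 and P35. The other 8 genes were not called at any age. At P1, 0 of the 10 genes were called, beside 0.0442% of 18100 genes tested. At P14 the count was also 0, beside 0.0318% of 15728 genes. At an unadjusted *P*-value under 0.05, 1978 genes stood out at P1 and 1072 at P14, among them 2 and 1 of the 10, and DESeq2 called 0 of the 10 at both ages. At P21, 2 of the 10 were called, both higher in KO, where 4.67% of all genes tested were called and 3.18% were called higher. At P35 the same 2 were called, both higher, where 16% of all genes tested were called and 8.49% were called higher. With 10 genes only, the count at P35 was close to the share called in either direction and above the share called higher. The median log2FC of the 10 genes was 0.05 at P1 beside 0.01 for all genes tested, and 0.01 at P14 beside 0.00. It was 0.14 at P21 beside 0.01, and -0.06 at P35 beside 0.04.

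**Figure D1:**
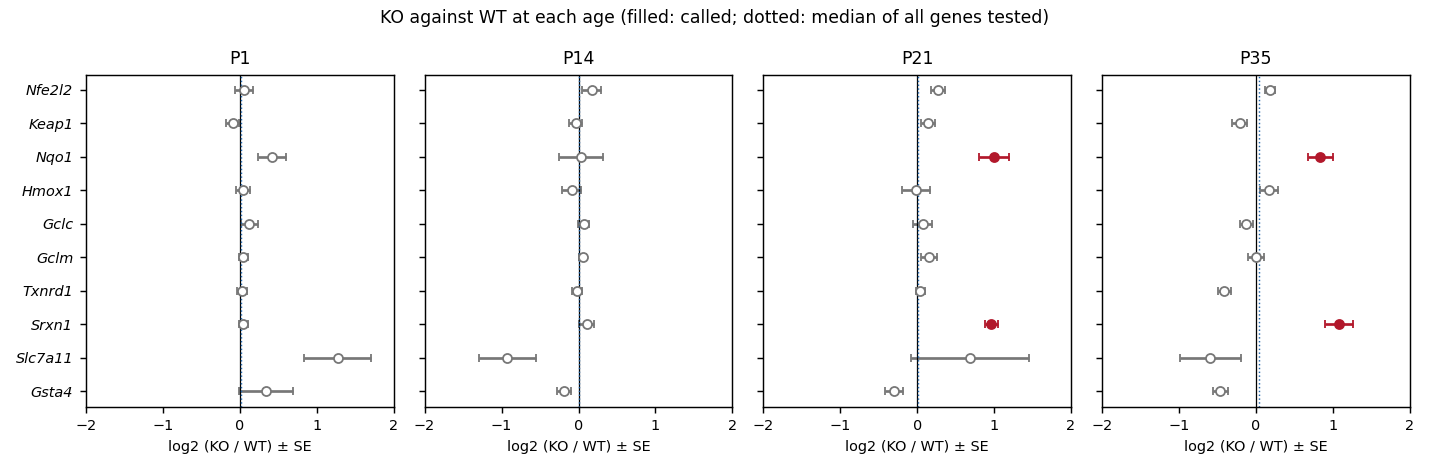
Log2FC of KO over WT for each gene at P1, P14, P21 and P35, with bars of 1 SE from the edgeR fit of 4 WT and 4 KO libraries; filled points were called and the dotted line is the median of all genes tested. Filled points appear at P21 and P35 only, for *Srxn1* (0.96 and 1.08) and *Nqo1* (1.00 and 0.84), and *Slc7a11* has the widest bars.

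Sulfiredoxin, the product of *Srxn1*, restores peroxiredoxins whose active-site cysteine has been over-oxidised. The gene lies on chromosome 2 from 152105516 to 152111376 on the plus strand of GRCm38. At P21 the 4 WT libraries held 29.0, 28.2, 21.9 and 25.3 CPM, while the 4 of KO held 48.3, 53.7, 47.8 and 51.8 CPM. The lowest KO library was thus well above the highest WT library. The log2FC was 0.96 ± 0.0882 (SE, *n*=4 per genotype), with an adjusted *P*-value of 3.06e-04 by edgeR's quasi-likelihood test. At P35 the WT libraries held 34.1, 30.6, 35.5 and 28.8 CPM, while those of KO held 55.1, 51.2, 67.4 and 94.7 CPM. Again the genotypes did not overlap, and KO replicate 4 was highest. The log2FC was 1.08 ± 0.180, with an adjusted *P*-value of 0.00143 by the same edgeR test. Without KO replicate 4 it was 0.86 and *Srxn1* was still called.

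*Srxn1* was not called at the earlier ages, with a log2FC of 0.05 at P1 and 0.11 at P14 and adjusted *P*-values of 0.775 and 0.940 by edgeR. At P1 it stood at 13.4 ± 0.405 CPM in WT and 13.7 ± 0.570 CPM in KO (SD, *n*=4). At P14 it stood at 16.9 ± 0.238 CPM in WT and 18.3 ± 2.73 CPM in KO. The KO effect was larger at P35 than at P14, by 0.94 ± 0.180 on the log2 scale, with an adjusted *P*-value of 5.87e-04 in 1 edgeR fit of all 32 libraries. Between P21 and P14 the difference was 0.84 ± 0.181 with an adjusted *P*-value of 0.0142 in that edgeR fit, above the threshold of 0.01. Between P35 and P21 it was 0.11 ± 0.179, with an adjusted *P*-value of 0.812 by edgeR. Leaving out each library in turn at P21 and P35 kept the call of *Srxn1* at both ages.

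The product of *Nqo1* reduces quinones in a single step of 2 electrons, which avoids reactive semiquinones. The gene lies on chromosome 8 from 107388225 to 107403206 on the minus strand. It was a low-level transcript in WT muscle, with 3.17, 4.60, 3.16 and 3.96 CPM at P21, and the KO libraries held 8.20, 6.24, 5.62 and 9.54 CPM. Each KO library was above all 4 WT libraries. The log2FC was 1.00 ± 0.191 (SE, *n*=4 per genotype), with an adjusted *P*-value of 0.00682 by edgeR's quasi-likelihood test. At P35 the WT libraries held 10.05, 7.35, 6.98 and 8.28 CPM, while those of KO held 11.9, 11.9, 16.6 and 17.0 CPM. The genotypes did not overlap here either, although the highest WT library came near the lowest KO libraries. The log2FC was 0.84 ± 0.162, with an adjusted *P*-value of 0.00311 by edgeR.

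The calls of *Nqo1* lay close to the threshold. Of the 8 fits that leave out 1 library, 6 lost its call at P21 and 5 at P35, with adjusted *P*-values of 0.00603 to 0.0249 at P21 and 0.00280 to 0.0120 at P35 by edgeR. The call held at P21 only without WT replicate 2 or KO replicate 3, and at P35 only without WT replicate 1, KO replicate 1 or KO replicate 2. The fold changes in these fits stayed between 0.85 and 1.11 at P21 and between 0.74 and 0.95 at P35. With replicate numbers as a block, the adjusted *P*-value at P21 was 0.0103 by edgeR. At P1 the genotypes were already apart, with 1.15 to 1.45 CPM across WT and 1.497 to 2.36 CPM across KO libraries, yet the log2FC of 0.42 ± 0.179 had an adjusted *P*-value of 0.439 by edgeR. At P14 they overlapped, with 1.69 to 2.55 CPM across WT and 1.39 to 3.57 CPM across KO libraries. The KO effect at P35 exceeded that at P14 by 0.78 ± 0.317, with an adjusted *P*-value of 0.0885 by edgeR, so a difference between these ages was not shown.

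*Nqo1* was the 1 gene of the 10 whose genotypes did not overlap at P1, where 8.62% of all genes tested had no overlap. At P14 there was 0 of 10, beside 4.84%. At P21, *Srxn1* and *Nqo1* made 2 of 10, beside 24.7%. At P35 there were 4 of 10, with *Srxn1* and *Nqo1* higher and *Txnrd1* and *Gsta4* lower in KO, beside 39.6% of all genes tested, so such separation was common among all genes at the later ages.

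**Figure D2:**
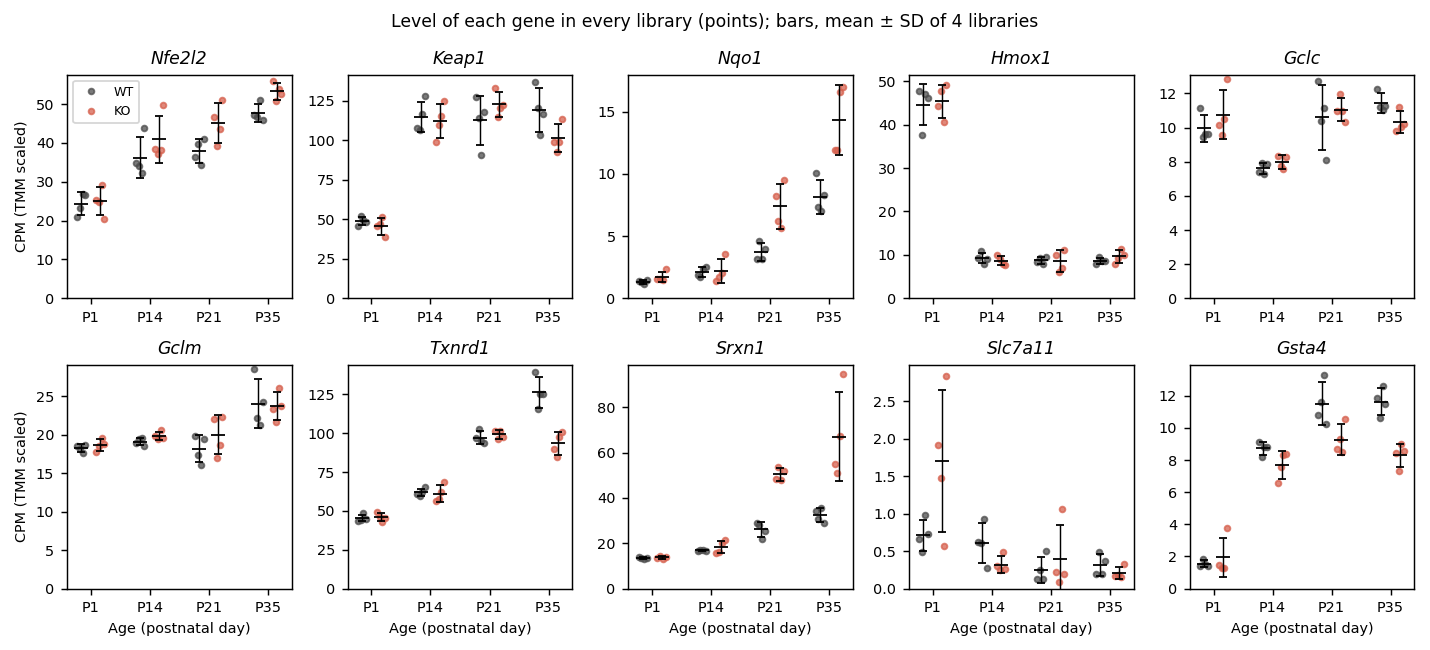
Level of each gene in every library, in CPM on a linear axis from 0, at P1, P14, P21 and P35 in WT (grey) and KO (red); points are libraries and bars are mean ± SD (*n*=4). *Srxn1* and *Nqo1* separate by genotype at P21 and P35 with KO above, *Txnrd1* and *Gsta4* separate at P35 with KO below, and *Hmox1* is high at P1 only.

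To show what lies at the start of the 2 genes called together, 100 bases of each promoter are given from the RefSeq promoter table on GRCm38.p6, from 120 to 21 bases before the annotated start and read on the strand of the gene. Capitals mark the matches to TGANTCAGC and TGANTCA, where the longer motif contains the shorter. The window of *Srxn1* is chr2:152105404-152105503 (plus strand) and that of *Nqo1* is chr8:107403226-107403325 (minus strand).
Srxn1: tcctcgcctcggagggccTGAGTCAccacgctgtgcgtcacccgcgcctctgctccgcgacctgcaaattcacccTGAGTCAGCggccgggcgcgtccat
Nqo1: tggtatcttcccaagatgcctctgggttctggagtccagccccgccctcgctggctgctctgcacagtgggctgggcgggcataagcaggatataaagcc

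Motifs were searched on both strands over the 250 bases before the start, for the 7 of the 10 genes that matched by symbol in that table. The form TGANTCAGC was found in *Srxn1*, 45 to 37 bases before the start, and 1.02% of all 32851 promoters hold it. *Srxn1* held a second TGANTCA from 102 to 96 bases before the start, and 6.75% of promoters hold this shorter form. The TGAGTCAGC of *Srxn1* did not match the antioxidant response element core TGACNNNGC, which was not found in this window of *Srxn1*. That core was found in *Nfe2l2*, *Gclm* and 1 of the 3 promoters of *Txnrd1*, where 10.2% of promoters hold it. These 9 bases were TGACTCCGC in *Nfe2l2*, from 240 to 232 bases before the start. They were GCACCGTCA in *Gclm* and GCTTTGTCA in *Txnrd1*, both on the opposite strand. *Nqo1*, *Keap1* and *Slc7a11* held none of these letters in this window, and enhancers farther away were not searched.

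*Nfe2l2* and *Keap1*, the regulators themselves, were not called at any age. *Nfe2l2* (chromosome 2, 75675513 to 75704641, minus strand) held 36.4, 39.7, 34.2 and 41.0 CPM across WT and 46.6, 39.2, 43.5 and 51.2 CPM across KO libraries at P21. Of the KO libraries, 1 lay within the WT range. The log2FC was 0.27 ± 0.0898, with an adjusted *P*-value of 0.0638 by edgeR. At P35 the WT libraries held 47.2, 46.6, 51.2 and 45.8 CPM, while those of KO held 55.8, 50.8, 53.8 and 52.7 CPM, so that the lowest KO library lay just within the WT range. The log2FC was 0.18 ± 0.0655, with an adjusted *P*-value of 0.0467 by edgeR. Scaled by library totals, it was 0.59 at P35 and was called.

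*Keap1* (chromosome 9, 21229730 to 21239361, minus strand) showed no clear separation. At P21 it held 90.7 to 127 CPM across WT and 114 to 133 CPM across KO libraries, with a log2FC of 0.14 ± 0.0926. At P35 it held 137, 120, 103 and 117 CPM across WT and 99.1, 92.6, 99.1 and 114 CPM across KO libraries. Of the 4 KO libraries, 3 lay below the WT range. The log2FC was -0.21 ± 0.0991, with an adjusted *P*-value of 0.113 by edgeR, and it was 0.19 when scaled by library totals. An antisense gene, *Gm16754*, shares 206 bases with its exons, and the strand setting of the counting is not given in the sources used here.

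Neither subunit of the enzyme that starts glutathione synthesis was called at any age. *Gclc* and *Gclm* encode the catalytic and modifier subunits of glutamate-cysteine ligase, the first and rate-limiting enzyme of the pathway. *Gclc* held 8.11 to 12.7 CPM across WT and 10.3 to 11.9 CPM across KO libraries at P21, and 11.02 to 12.3 CPM across WT and 9.78 to 11.2 CPM across KO libraries at P35. Its log2FC was 0.07 ± 0.127 at P21 and -0.12 ± 0.0840 at P35, the latter 0.28 when scaled by library totals. *Gclm* held 16.1 to 19.9 CPM across WT and 17.0 to 22.3 CPM across KO libraries at P21, and 21.3 to 28.5 CPM across WT and 21.6 to 26.1 CPM across KO libraries at P35. Its log2FC was 0.15 ± 0.103 at P21 and 0.00 ± 0.104 at P35, the latter 0.41 with an adjusted *P*-value of 0.00519 by edgeR when scaled by library totals. Libraries of both genotypes overlapped for both subunits at both ages. With TMM scaling, adjusted *P*-values of both genes by edgeR were 0.264 or higher at these 2 ages.

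*Slc7a11* encodes the subunit of the cystine/glutamate antiporter that brings in cystine for glutathione. It was close to the limit of detection at the later ages, with 4 to 52 counts per library at P21 and 8 to 21 at P35, and held 42 to 319 at P1. At P21 the WT libraries held 0.123, 0.246, 0.121 and 0.501 CPM, while those of KO held 0.227, 0.0832, 1.07 and 0.200 CPM. KO replicate 3 stood apart, and without it the log2FC of 0.69 ± 0.764 turned to -0.55. At P1, KO libraries held 0.562 to 2.84 CPM and WT libraries 0.481 to 0.976 CPM, and the log2FC of 1.27 ± 0.432 had an adjusted *P*-value of 0.331 by edgeR. At P14 the WT libraries held 0.623, 0.601, 0.931 and 0.272 CPM, while those of KO held 0.295, 0.243, 0.485 and 0.258 CPM, and they overlapped. The log2FC there was -0.92 ± 0.372, with an adjusted *P*-value of 0.691 by edgeR, and of 0.0476 by edgeR with the replicate block. The labels do not say that same-numbered libraries were paired. *Slc7a11* was not called at any age.

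*Txnrd1*, the cytosolic thioredoxin reductase, was lower in KO at P35. The gene lies on chromosome 10 from 82833951 to 82897712 on the plus strand. At P21 WT libraries held 96.9, 103, 94.8 and 93.6 CPM, while those of KO held 101, 96.1, 102 and 97.4 CPM, and these overlapped throughout. At P35 the WT libraries held 139, 116, 125 and 125 CPM, while those of KO held 90.1, 84.7, 97.8 and 101 CPM. All 4 KO libraries were below all 4 WT libraries. The log2FC was -0.41 ± 0.0839 with an adjusted *P*-value of 0.00404 by edgeR, past the *P*-value threshold but under the fold threshold, so it was not called. Scaled by library totals, this difference was -0.0086 with an adjusted *P*-value of 0.928 by edgeR.

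The KO effect on *Txnrd1* was lower at P35 than at P14 by -0.42 ± 0.0945, with an adjusted *P*-value of 0.00284, and lower than at P21 by -0.47 ± 0.0944, with an adjusted *P*-value of 0.00857, in the edgeR fit of all 32 libraries. The second of these was lost in 12 of the 16 fits that leave out 1 library, and held without WT replicate 2 at P21 or without WT replicate 2, WT replicate 3 or KO replicate 4 at P35. Differences in KO effect, called by the adjusted *P*-value alone, were called for 8.53% of all genes tested between P35 and P14 and for 2 of the 10 genes, *Srxn1* and *Txnrd1*. Between P35 and P21 the share was 0.463%, with *Txnrd1* alone among the 10, and between P21 and P14 it was 0.425%, with 0 of the 10. At an unadjusted *P*-value under 0.05 this last comparison had 2398 genes, 2 of the 10 among them, and DESeq2 called 1 of the 10. With library totals both differences of *Txnrd1* were -0.07 (P35 against P14) and -0.24 (P35 against P21) and were not called. For P35 against P14, 2 of the 10 genes were called with library totals, both higher. There 3130 genes were called among all tested, and the all-gene median was 0.36.

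*Hmox1* encodes haem oxygenase 1, which opens the haem ring to biliverdin, iron and carbon monoxide. It held 7.93 to 9.57 CPM across WT and 7.91 to 11.3 CPM across KO libraries at P35, with a log2FC of 0.17 ± 0.119 and an adjusted *P*-value of 0.268 by edgeR. With library totals this was 0.58, with an adjusted *P*-value of 0.00354 by edgeR, still under the fold threshold. At P21 it held 7.85 to 9.42 CPM across WT and 6.05 to 11.2 CPM across KO libraries, where the KO libraries were more spread than the WT libraries on both sides. The log2FC there was -0.02 ± 0.181, and 0.17 with library totals.

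*Gsta4* encodes a glutathione transferase that acts on 4-hydroxynonenal, an aldehyde formed from oxidised lipids. At P21 the WT libraries held 10.8, 11.6, 13.3 and 10.3 CPM, while those of KO held 8.70, 9.32, 8.47 and 10.6 CPM. Only KO replicate 4 lay within the WT range. At P35 the WT libraries held 11.8, 10.6, 12.6 and 11.5 CPM, while those of KO held 8.41, 7.30, 8.97 and 8.55 CPM, with no overlap. The log2FC was -0.30 ± 0.112 at P21, with an adjusted *P*-value of 0.0869, and -0.46 ± 0.0961 at P35, with an adjusted *P*-value of 0.00450 by edgeR, below the fold threshold. With library totals the value at P35 was -0.06, with an adjusted *P*-value of 0.602 by edgeR.

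Scaling weighed on the genes with small differences. With library totals in place of TMM, the all-gene median log2FC was 0.20 at P21 and 0.44 at P35, so the values of the 10 genes shifted upward together. *Srxn1* and *Nqo1* stayed called at P21 and P35 under both scalings, at 1.16 and 1.47 and at 1.19 and 1.24 with library totals. At P35, 6 of the 10 genes lay below that median, namely *Slc7a11* at -0.19, *Gsta4* at -0.06, *Txnrd1* at -0.0086, *Keap1* at 0.19, *Gclc* at 0.28 and *Gclm* at 0.41.

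**Figure D3:**
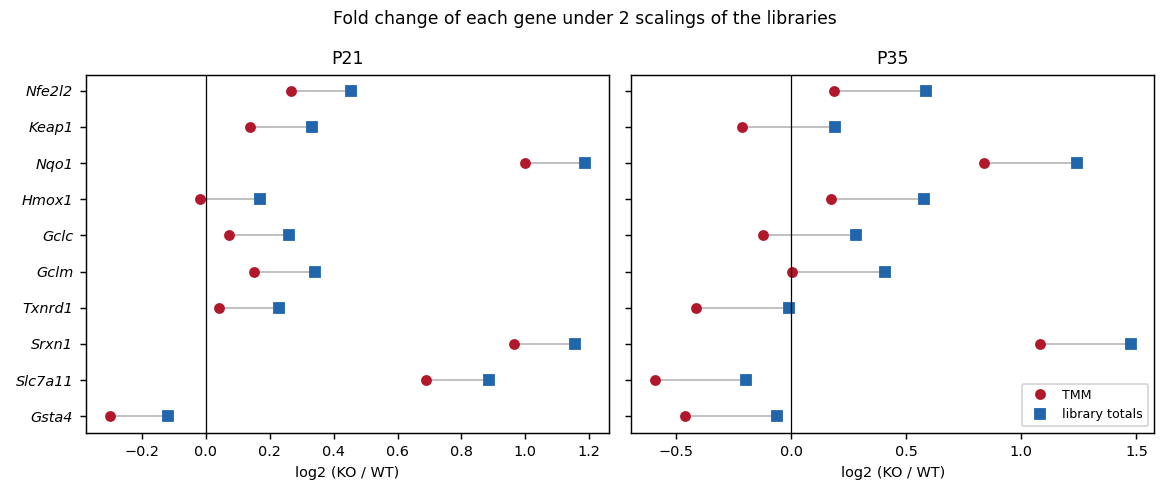
Log2FC of KO over WT for each gene at P21 and P35, with libraries scaled by TMM (red circles) or by library totals (blue squares). The squares lie to the right of the circles, *Srxn1* and *Nqo1* lie far above 0 under both, *Hmox1* at P21 and *Keap1* and *Gclc* at P35 change sign, and *Txnrd1* at P35 comes close to 0 at -0.0086.

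Some other features of the tissue were compared between genotypes at P21 and P35. Among all genes tested, 24.7% at P21 and 39.6% at P35 had no overlap between genotypes, in either direction. The marker counts below stand against these shares, and several lay near them. At P35 the 11 muscle fibre markers summed to 148284 to 207489 CPM across WT and 100395 to 127801 CPM across KO libraries, with 4 of the 11 below and 1 above the WT range. Mitochondrially encoded genes took 12.4% to 17.9% of counts in WT and 10.3% to 10.5% in KO. At P21 the same markers summed to 186188 to 240724 CPM across WT and 164322 to 180134 CPM across KO libraries, with 2 of 11 below and 2 above the WT range, and mitochondrially encoded genes took 9.75% to 12% and 8.21% to 8.78% of counts. The 5 endothelial markers, with 2 of 5 below WT at both ages, summed to 533 to 816 CPM across WT and 417 to 509 CPM across KO libraries at P21, and to 310 to 578 and 272 to 339 CPM at P35. The 4 satellite cell markers summed to 27.6 to 37.7 CPM across WT and 16.6 to 27.4 CPM across KO libraries at P21, with 2 of 4 below WT. At P35 they summed to 33.2 to 49.1 and 20 to 38.6 CPM, again with 2 of 4 below. The 6 adipocyte markers summed to 5.49 to 26.8 CPM across WT and 43.0 to 177 CPM across KO libraries, with 6 of 6 above WT. The 10 macrophage markers summed to 82.3 to 108 CPM across WT and 98.6 to 138 CPM across KO libraries, with 6 of 10 above and 1 below. At P21 the macrophage markers summed to 96.3 to 109 CPM across WT and 112 to 138 CPM across KO libraries, with 7 of 10 above, while the adipocyte sums overlapped at 1.47 to 30.3 CPM across WT and 2.98 to 28.0 CPM across KO libraries. No marker of these lists was at 0 in these groups. The 8 keratinocyte markers summed to 6.71 to 10.02 CPM across WT and 28.6 to 35.2 CPM across KO libraries at P21, and to 9.09 to 10.1 and 24.7 to 29.9 CPM at P35. Of the 8, 1 was above WT at each of these ages, *Trp63*, named after its values were seen, with 4.23 to 7.37 CPM across WT and 25.6 to 31.6 CPM across KO libraries at P21. *Krt15* and *Dsg3* were at 0 in both genotypes at P21. The 7 erythroid markers summed to 3178 to 4357 CPM across WT and 1626 to 3283 CPM across KO libraries at P21. These sums overlapped, with 2 of 7 markers below WT. At P35 the erythroid sums also overlapped, with 0 markers above or below. The fibroblast and Schwann cell sums overlapped at both ages, with 0 markers above or below. The part of all these features in the results for the 10 genes was not tested.

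The levels of the genes in WT muscle changed with age, and age cannot be told apart from anything else that differed between the collections. From P1 to P14 the mean sum of muscle fibre markers in WT went from 50564 to 190679 CPM. Macrophage markers went from 208 to 115 CPM, erythroid from 1215 to 554 CPM and keratinocyte from 3083 to 11.6 CPM. Endothelial and Schwann cell sums rose, while fibroblast, adipocyte and satellite cell sums fell. The part of these shifts was not tested. Between P1 and P14, 4 of the 10 genes were called, beside 53.5% of all genes tested. *Gsta4* rose from 1.56 ± 0.211 to 8.73 ± 0.402 CPM (SD, *n*=4), a log2FC of 2.49 ± 0.221 (SE). *Keap1* rose by 1.22 and *Nqo1* by 0.69 on this scale, and the call of *Nqo1* held in 1 of the 8 fits that leave out 1 library, that without WT replicate 2 at P14. *Hmox1* fell from 44.6 ± 4.77 to 9.24 ± 1.198 CPM, a log2FC of -2.27 ± 0.146. With library totals 4 were also called but 1 higher and 3 lower, beside 65.1% of all genes tested, the all-gene median was -0.87, *Nqo1* turned to -0.11 and *Keap1*, at 0.44, was not called.

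Between P14 and P21, 2 of the 10 were called in WT, beside 6.83% of all genes tested. *Txnrd1* rose by 0.65 ± 0.0671 and *Srxn1* by 0.63 ± 0.128 on the log2 scale, and neither was called with library totals, where 8.34% of all genes tested were called. Without WT replicate 1 at P21 the value of *Srxn1* was 0.57 and it was not called. Between P21 and P35, *Nqo1* alone was called, beside 4% of all genes tested. Its WT level went from 3.72 ± 0.693 to 8.16 ± 1.37 CPM, a log2FC of 1.13 ± 0.225, with an adjusted *P*-value of 9.71e-04 by edgeR. The KO level of *Nqo1* at P21 was 7.40 ± 1.80 CPM, and it was not tested against WT at P35.

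Levels of different genes were compared per kb of exon, the union of all annotated exons of a gene. This union can be longer than the transcripts present, which lowers the value of genes with several annotated transcripts. It was 1.553 kb over 1 transcript for *Nqo1*, 7.086 kb over 8 for *Txnrd1* and 13.922 kb over 5 for *Slc7a11*, so the order is approximate. In WT at P35 *Keap1* was highest, at 25.4 ± 2.93 CPM per kb (SD, *n*=4), followed by *Txnrd1* at 17.8 ± 1.37, *Nfe2l2* at 12.6 ± 0.629 and *Srxn1* at 11.4 ± 1.10 CPM per kb. *Gsta4* at 9.19 ± 0.650, *Nqo1* at 5.26 ± 0.883, *Hmox1* at 4.96 ± 0.385, *Gclm* at 3.82 ± 0.511 and *Gclc* at 3.03 ± 0.150 CPM per kb came next, and *Slc7a11* was lowest at 0.0224 ± 0.0105 CPM per kb. Neighbours in this order whose libraries overlapped were *Nfe2l2* with *Srxn1* and *Nqo1* with *Hmox1*. In KO at P35 *Srxn1* led at 23.8 ± 6.97 CPM per kb and overlapped *Keap1* at 21.5 ± 1.88 CPM per kb. In WT at P1 *Hmox1* led at 25.5 ± 2.73 CPM per kb.

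Across the 8 group means of log2 CPM, *Srxn1* and *Nqo1*, paired here because both were called, had a Pearson correlation of 0.968. *Keap1* and *Gsta4* had a higher one, of 0.981. *Hmox1* ran opposite to *Keap1* at -0.994 and to *Gsta4* at -0.985. These 8 points share age and genotype and describe the groups only. Among 18583 genes, the profile most like *Srxn1* was that of *Hspbap1* at 0.995, and that most like *Nqo1* was *Ogt* at 0.992. The closest profiles of the others were *Slc35a1* for *Nfe2l2* and *Kcnc4* for *Keap1* (both 0.997), *Rspo2* for *Hmox1* and *Dtwd2* for *Gsta4* (both 0.999), *Ccdc22* for *Txnrd1* (0.995), *Tmem14a* for *Gclm* (0.982), *Slc35f3* for *Slc7a11* (0.981) and *Hoxc6* for *Gclc* (0.980).

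Other genes of the pathway were drawn from lists of 108 genes, also chosen with earlier results of these data known. At P1 and P14, 0 of 105 and 0 of 97 tested were called by edgeR, with 12 and 4 at an unadjusted *P*-value under 0.05, and DESeq2 called 1 and 0. At P21, 7 rose and 3 fell of 100 tested, beside 3.18% higher and 1.5% lower among all genes tested. At P35, 15 rose and 8 fell of 103 tested, beside 8.49% and 7.52% among all genes, and the counts of the lists below stand against these shares. The median log2FC was 0.13 at P21 and 0.16 at P35, beside 0.01 and 0.04 for all genes. With library totals 17 were called higher and 1 lower at P21, and 41 higher and 4 lower at P35. There 7.62% and 30% of all genes tested were called in either direction, and shares by direction are not given. The all-gene median log2FC with this scaling was 0.20 at P21 and 0.44 at P35, so the balance of directions rested on the scaling. Of the genes named below, *Glrx*, *Me1*, *Fech*, *Akr1b10* and *Cebpg* kept their sign with library totals but not their call at P35.

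Among 16 regulators and partners of NRF2, 2 rose and 0 fell at P35, where 16% of all genes tested were called. *Maff*, a small MAF protein, held 1.94 to 2.94 CPM across WT and 5.65 to 10.2 CPM across KO libraries, with a log2FC of 1.56 ± 0.217 and an adjusted *P*-value of 6.04e-04 by edgeR. *Nfe2l3*, a factor related to NRF2, rested on 1 to 5 counts per WT library and 13 to 37 per KO library. At P21, 2 rose, *Nfe2l3* and *Sqstm1*. *Sqstm1*, which encodes p62 and was named after its values were seen, held 237 to 338 CPM across WT and 409 to 548 CPM across KO libraries at P21, a log2FC of 0.75 ± 0.122. At P35 the log2FC of *Sqstm1* was 0.45 and it was not called. With library totals this value was 0.85 and was called.

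Of 35 genes of glutathione synthesis and use, 8 rose and 1 fell of 32 tested at P35, beside 8.49% higher and 7.52% lower among all genes. *Gsr*, the glutathione reductase, held 23.6 to 29.7 CPM across WT and 39.3 to 46.0 CPM across KO libraries, a log2FC of 0.64 ± 0.0880 with an adjusted *P*-value of 5.86e-04 by edgeR. *Gpx8*, a peroxidase of the endoplasmic reticulum, rose by 0.98 ± 0.102 and *Gstt3*, a glutathione transferase, by 1.29 ± 0.178 on the log2 scale. *Gss*, the glutathione synthetase, rose by 0.74 ± 0.127 and was also named after its values were seen. The gene that fell was *Glrx*, the glutaredoxin, at -0.96 ± 0.153, named after its values were seen. Members of the *Gsta* and *Gstp* families among those that rose have near-identical copies between which reads may have been split, and are uncertain.

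Of 16 thioredoxin and peroxiredoxin genes, *Txn1* alone was called at P21 and at P35. Thioredoxin 1 is the substrate of the reductase that *Txnrd1* encodes. At P35 *Txn1* held 36.5, 43.7, 38.1 and 38.5 CPM across WT and 61.1, 62.1, 97.0 and 95.6 CPM across KO libraries, with no overlap. Its log2FC was 0.68 ± 0.0889 at P21 and 1.03 ± 0.163 at P35, with adjusted *P*-values of 0.00130 and 0.00111 by edgeR. *Txn1* and *Txnrd1* thus differed from WT in opposite directions at P35 with TMM scaling, and with library totals *Txnrd1* was near 0.

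Of 8 genes that supply NADPH, 1 rose and 1 fell at P35. *Pgd*, an enzyme of the pentose phosphate pathway, rose by 0.87 ± 0.113 and *Me1*, the cytosolic malic enzyme, fell, at -0.90 ± 0.187. Of 8 genes of haem and iron, 0 rose and 2 fell. *Slc40a1*, the iron exporter ferroportin, held 34.5 to 51.5 CPM across WT and 8.98 to 15.8 CPM across KO libraries at P35, a log2FC of -1.77 ± 0.192, and *Fech*, which inserts iron into haem, stood at -0.63 ± 0.0623.

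Of 21 detoxification and efflux genes, 2 rose and 3 fell of 19 tested at P35, where 16% of all genes tested were called. *Akr1b8*, an aldo-keto reductase, held 1.07 to 1.89 CPM across WT and 5.28 to 8.65 CPM across KO libraries, a log2FC of 2.26 ± 0.210. *Aldh3a1*, an aldehyde dehydrogenase named after its values were seen, held 0.0922 to 0.146 CPM across WT and 2.64 to 9.56 CPM across KO libraries, on 4 to 6 counts per WT library. *Abcc4*, an efflux transporter, fell to -1.47 ± 0.103 and *Aldh1a1*, a retinal dehydrogenase, to -1.81 ± 0.170. The remaining gene that fell was *Akr1b10*, at -0.95 ± 0.0993, also named after its values were seen.

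Of 4 superoxide and peroxide genes, 1 rose and 1 fell at P35. *Sod2*, the mitochondrial superoxide dismutase, held 561, 595, 675 and 577 CPM across WT and 256, 252, 252 and 308 CPM across KO libraries. The genotypes did not overlap, with a log2FC of -1.15 ± 0.0976 and an adjusted *P*-value of 8.51e-05 by edgeR. *Sod3*, the secreted form, rose by 0.88 ± 0.188.

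A list of 16 genes, made of *Atf4* itself and targets of ATF4, a stress factor that also drives *Slc7a11*, was examined beside these lists. Of 14 tested at P35, 2 rose and 1 fell, where 16% of all genes tested were called. *Atf3* held 2.72 to 6.55 CPM across WT and 23.2 to 38.9 CPM across KO libraries, a log2FC of 2.68 ± 0.268. *Psat1*, of serine synthesis, rose by 1.22 ± 0.150 and *Cebpg*, a partner of ATF4, stood at -0.67 ± 0.0990. The median of this list was 0.09 at P35, beside 0.04 for all genes tested.

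**Figure D4:**
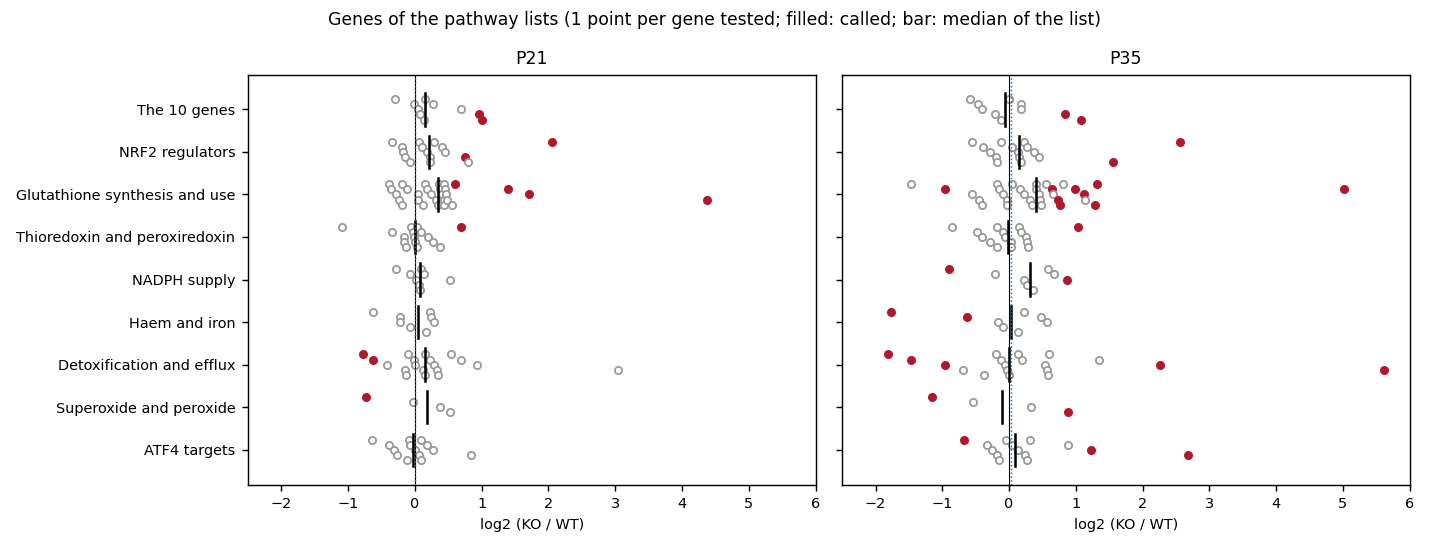
Log2FC of KO over WT at P21 and P35 (TMM scaling) for the 10 genes and for the genes of each pathway list; each point is a gene tested, filled points were called, black bars are list medians and the dotted line is the median of all genes tested. Called genes lie on both sides of 0, with 15 higher and 8 lower at P35 over the 108 genes outside the ATF4 list, and *Aldh3a1* (5.61), which rests on 4 to 6 counts per WT library, lies farthest to the right.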

How the data were processed

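RNA of the TA muscle was extracted from WT and KO mice (*n*=4 per genotype and age), poly(A) selected and made into directional libraries. The deposited table holds an expected count per gene and library, unscaled, which the authors made with STAR 2.6.1 and RSEM 1.2.22 on GRCm38 according to the submitters' processing notes; the study's methods name HTSeq as the counter. Of the values 4.26% were not whole, and counts were rounded. Totals were 49321035 to 85631408 per library, and errors from counting cover counting only. Symbols and coordinates came from GENCODE M21 (GRCm38) for 54723 of 54838 genes.

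Analyses used R 4.3.3 with edgeR 4.0.16 (filterByExpr, TMM, glmQLFit and glmQLFTest, two-sided, Benjamini-Hochberg adjustment over all genes tested), the groups coming from the sample titles. Contrasts between WT ages and differences of the KO effect between ages came from 1 fit of all 32 libraries, and the latter were called on the adjusted *P*-value alone. SEs were derived from the *F* statistic. The steps were tested on simulated data. Alternatives were DESeq2 1.42.0, other scalings and filters, other samples in the fit, a replicate block, another threshold and leaving out each library in turn.

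The 10 genes and all lists were chosen with earlier results of these data known. The genes named were the 10, *Mtm1*, in each list up to 3 called genes of smallest adjusted *P*-value at P35 (or any called at P1 or P14), and for each of the 10 the gene of most similar profile. Replicate numbers come from the titles. Deviations from the group means correlated over 0.1 in every same-numbered pair at P14 (0.200 to 0.610) and not at the other ages. By this measure WT replicates 1 and 2 at P14 were closest to KO replicates 2 and 1, and the labels state no pairing. No 2 replicates agreed within sampling noise. Promoters came from RefSeq on GRCm38.p6, and figures were drawn with matplotlib 3.10.9.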

Additional observations from a re-analysis of the deposited data

Results flagged for a closer look

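Of the 80 sets of 4 libraries (10 genes in 8 groups), 7 held a library whose gap to its nearest neighbour was a large part of the range, where chance gives about 1 in 20. *Nfe2l2* in KO at P14 had 1 library at 49.8 CPM against 37.2 to 38.5 CPM in the others. *Nqo1* in KO at P1 had 1 library at 2.36 CPM against 1.497 to 1.59 CPM. *Hmox1* in WT at P1 had 1 low library at 37.5 CPM against 46.1 to 47.7 CPM, and *Gclc* in WT at P1 had 1 at 11.2 CPM against 9.43 to 9.63 CPM. *Slc7a11* had 1 library at 1.07 CPM against 0.0832 to 0.227 CPM in KO at P21, and 1 at 0.321 CPM against 0.153 to 0.177 CPM in KO at P35. *Gsta4* in KO at P1 had 1 library at 3.77 CPM against 1.27 to 1.46 CPM. The high libraries of *Nqo1* and *Gsta4* at P1 were both KO replicate 4, which also had the lowest sum of muscle fibre markers at that age, 27018 CPM, and without it the log2FC of *Gsta4* at P1 turned from 0.34 to -0.21.

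The KO effect differed between ages for 2 genes in the edgeR fit of all 32 libraries. For *Srxn1* it was larger at P35 than at P14 by 0.94. For *Txnrd1* it was lower at P35 than at P14, by -0.42, and lower than at P21, by -0.47.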

How the results depend on the processing

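*Srxn1* stayed called at P21 and P35 under all the alternatives run, and of the 10 genes 0 were called at P1 and P14 under any of them. *Nqo1* stayed positive at both ages but lost its call when single libraries were left out and, at P21, with the replicate block. The cause of the changes below was not tested, except that scaling by library totals moves all genes together. That scaling turned *Keap1* (0.0506), *Hmox1* (0.0041) and *Txnrd1* (0.0611) at P14, *Hmox1* at P21 (0.17), *Keap1* (0.19) and *Gclc* (0.28) at P35, and *Nqo1* in WT between P1 and P14 (-0.11). It gave 18 other pathway genes called at P21 and 45 at P35 (10 and 23 with TMM), 0 of the 10 genes between P14 and P21 in WT, 1 for the KO effect at P21 against P14, and 0 at P35 against P21. For the KO effect at P35 against P14 it gave 2, both higher (1 higher and 1 lower with TMM).

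With DESeq2, 1 other pathway gene was called at P1 and 1 of the 10 for the KO effect at P21 against P14, and *Gclm* at P35 was -0.0115, as with RLE size factors. RLE left 0 of the 10 for the KO effect at P35 against P21. In 1 fit of all libraries *Gclm* at P35 was -0.0203. Requiring 10 counts in every library gave 1 for P21 against P14. Using only the 16 libraries of the 2 ages gave 1 for P21 against P14, 0 for P35 against P21 and 1 for P35 against P14. An adjusted *P*-value under 0.05 with no fold threshold gave 37 other pathway genes at P21, where 21% of all genes tested were called, and 51 at P35, where 41.4% were called. It gave 5 of the 10 genes at P35, 3 higher and 2 lower, close to that share.

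With the replicate block, 1 of the 10 genes was called at P21 and 0 for the KO effect at P35 against P21, and *Nqo1* at P14 turned to -0.0202. At P14 the block took all genes called from 5 to 98 and called 0 of the 10. The adjusted *P*-values of *Slc7a11* and *Nfe2l2* by edgeR were then 0.0476 and 0.0407 (0.691 and 0.892 without the block). Same-numbered libraries correlated at P14, but a pairing of animals is not stated in the labels. At the other ages such a correlation was not seen in every same-numbered pair. There the block took all genes called from 8 to 2 at P1, from 709 to 634 at P21 and from 2496 to 2273 at P35.

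Leaving out 1 library gave 1 to 2 of the 10 genes called at P21 and at P35, 1 to 3 between P14 and P21 in WT, 0 to 1 for the KO effect at P35 against P21, and 4 to 10 other pathway genes at P21 (4 without WT replicate 1, 5 without KO replicate 2 and 6 without KO replicate 4). Log2FCs that changed sign ranged from -0.0367 to 0.13 for *Nfe2l2*, -0.0437 to 0.0840 for *Hmox1*, -0.0037 to 0.0621 for *Txnrd1* and -0.21 to 0.49 for *Gsta4* at P1. At P14 they ranged from -0.0944 to 0.0187 for *Keap1*, -0.31 to 0.19 for *Nqo1* and -0.0845 to 0.0140 for *Txnrd1*. At P21 they ranged from -0.18 to 0.11 for *Hmox1*, -0.0394 to 0.15 for *Gclc* and -0.55 to 1.29 for *Slc7a11*, and at P35 from -0.0550 to 0.0923 for *Gclm*. At P21 and P35 *Slc7a11* rested on 4 to 52 counts per library, which limits its precision.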
